A study of Mus musculus with 64 samples.

Results

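The genes described here encode the proteins of the mitochondrial ribosome. They were taken as every gene of the deposited gene table whose symbol starts with Mrpl or Mrps followed by a number. The rule found 79 of 16913 genes, 50 named for the large subunit and 29 for the small subunit. Of the 79, 78 are protein coding, and Mrpl23-ps1 is a processed pseudogene, whose reads could come from its parent gene and whose values are therefore uncertain.

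Mitochondrial ribosomes translate the few messenger RNAs of the mitochondrial genome, all of which encode subunits of the respiratory chain and the ATP synthase. Their ribosomal RNAs are made inside the organelle, whereas their proteins are encoded in the nucleus, translated in the cytosol and imported, so that assembly of both subunits depends on both genomes. The heart is rich in mitochondria, and inherited defects of several of these proteins in people include cardiomyopathy. Gene symbols do not always follow the position of the protein: the products of Mrps30 and Mrps18a sit in the large subunit, and the product of Mrps36 is now placed in the oxoglutarate dehydrogenase complex.

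The study profiled hearts of C57BL/6J mice by bulk RNA sequencing after depletion of ribosomal RNA. Transgenic mice (TG) carried a troponin T transgene with the delta160E deletion, which is used as a model of hypertrophic cardiomyopathy, and non-transgenic mice (nTG) did not. Mice either stayed sedentary or underwent high-intensity interval training on a treadmill for 6 weeks, with 3 sessions of 31 minutes per week that alternated 4 intervals at 85% and 4 at 50% of the speed reached in a graded test. The labels number the samples of a group as biological replicates, and give the sex of each mouse but no age. The 8 groups held 7 sedentary nTG males, 8 trained nTG males, 9 sedentary TG males, 8 trained TG males, 8 sedentary nTG females, 10 trained nTG females, 8 sedentary TG females and 6 trained TG females. The promoter that drives the transgene is not given in the sources used here. Each library is 1 heart sample, so a smaller share of a cell type and less RNA per cell cannot be told apart.

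Totals ranged from 34574813 to 67068562 gene counts per library. The column names of the gene table could not be used as they stand, because 45 of the 64 libraries then went against their labelled sex or genotype in Xist, Y-linked genes or Tnnt2, the troponin T gene. Each gene column was therefore given to the label of the lncRNA column it correlated with best over 389 autosomal transcripts, which gave 64 unique pairs with r from 0.599 to 0.863 against at most 0.404 for the next best, and none of the 64 libraries then went against its sex or genotype. With columns taken by name, no member passed the test in any comparison reported below. Trained TG male 4 stood apart within its group: it had the lowest summed level of the members of all 64 libraries and, within its group, the highest summed fibroblast markers at 1713 CPM (CPM being gene counts scaled to a common library size with TMM factors). The 5 cardiomyocyte markers were detected in every group, with sums of 54350 to 64580 CPM in sedentary nTG males and 48230 to 57450 in sedentary TG males.

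Promoters of the members held the binding motif of ETS factors, among them the nuclear respiratory factor GABP, more often than promoters at large. RefSeq windows of 300 bases, from 250 before to 50 after the start, were matched by symbol for 69 of the 79 members and gave 75 windows on GRCm38.p6. The ETS letters CCGGAAG, on either strand, were in 34.7% of these windows and in 8.86% of all 32851 windows of this length. The letters GCATGCG, the core of the NRF1 motif, were in 10.7% against 3.58%, and GATGGCG, the core of the YY1 motif, in 10.7% against 3.49%. The windows of 23 of 48 large-subunit and 13 of 27 small-subunit entries held at least 1 of these motifs, against 14.5% of all windows. All 32851 windows belong to 27025 gene symbols, against 16913 genes in the table. They were not matched to the members in base composition or expression, so the excess is not shown to be particular to the members. Members without a matched window were Mrps35, Mrpl54, Mrps34, Mrps28, Mrpl19, Mrpl4, Mrpl23-ps1, Mrpl15, Mrpl13 and Mrpl38. The stretches below are the upstream bases that hold no annotated exon, and are shown because they set members that fell in TG hearts beside one that did not. Capitals mark the motif, ETS in every stretch except that of Mrpl9, where NRF1 letters on both strands overlap. In Mrps27 and Mrpl52 the ETS letters are on the minus strand and appear as their reverse complement. Mrpl58 (chr11:115403502-115403751, plus strand) and Mrps27 (chr13:99344706-99344785, plus strand) fell in 3 of the 4 TG comparisons below, Mrpl34 (chr8:71464676-71464925, plus strand) and Mrpl9 (chr3:94443086-94443317, plus strand) in 2, and Mrpl52 (chr14:54426659-54426908, plus strand) in none.
Mrpl58: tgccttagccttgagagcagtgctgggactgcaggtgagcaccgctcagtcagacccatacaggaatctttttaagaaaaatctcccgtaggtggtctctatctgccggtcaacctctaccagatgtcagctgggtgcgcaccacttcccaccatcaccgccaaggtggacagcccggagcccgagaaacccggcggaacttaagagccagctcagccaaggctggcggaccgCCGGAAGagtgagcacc
Mrps27: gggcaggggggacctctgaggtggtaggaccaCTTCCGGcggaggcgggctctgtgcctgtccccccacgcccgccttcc
Mrpl34: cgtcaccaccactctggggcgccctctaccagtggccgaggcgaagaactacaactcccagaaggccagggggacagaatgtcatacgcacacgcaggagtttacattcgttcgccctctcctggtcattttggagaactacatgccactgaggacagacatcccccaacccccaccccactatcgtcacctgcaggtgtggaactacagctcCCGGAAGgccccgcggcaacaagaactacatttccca
Mrpl9: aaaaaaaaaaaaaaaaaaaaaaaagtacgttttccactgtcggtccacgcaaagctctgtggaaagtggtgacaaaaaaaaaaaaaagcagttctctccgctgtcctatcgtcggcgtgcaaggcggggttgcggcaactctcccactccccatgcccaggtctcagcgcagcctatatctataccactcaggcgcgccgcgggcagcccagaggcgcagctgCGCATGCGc
Mrpl52: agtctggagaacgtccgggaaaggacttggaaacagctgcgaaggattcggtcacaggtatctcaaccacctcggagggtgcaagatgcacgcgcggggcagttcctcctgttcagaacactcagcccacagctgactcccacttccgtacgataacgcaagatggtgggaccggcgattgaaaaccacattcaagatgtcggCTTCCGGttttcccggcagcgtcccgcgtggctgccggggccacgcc

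The members were also counted by motif and by their difference between TG and nTG hearts, with no test. Of the 26 members with ETS letters in a window, 18 were lower in TG hearts in the mean over the 4 comparisons, with a median log2 difference of -0.11. Of the 43 matched members without them, 35 were lower, also with a median of -0.11. For NRF1 letters the counts were 3 of 8 with and 50 of 61 without, and for YY1 letters 7 of 8 with and 46 of 61 without. Over all genes, 20.5% were lower in that mean. A match to such short letters describes the sequence and shows no binding.

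The members differed widely in transcript level but little between mice. Levels between genes are given as CPM per kilobase of the principal transcript, as the mean over the 8 groups. In the large subunit, Mrpl42 was highest with 98.1 CPM per kilobase, followed by Mrpl12 with 74.5 and Mrpl4 with 61.4. Mrpl12 encodes a stalk protein that also binds the mitochondrial RNA polymerase. The lowest protein-coding members were Mrpl32 with 1.95, Mrpl47 with 3.33 and Mrpl19 with 3.70 CPM per kilobase. These ranks depend on the annotated length, as Mrpl19 had 18.5 CPM over 5000 bases and Mrpl20 had 5.48 CPM over 764. Mrpl32 encodes a zinc-binding protein that a protease of the inner membrane must process before it joins the ribosome.

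In the small subunit, Mrps21 was highest with 76.5 CPM per kilobase, ahead of Mrps34 with 52.2 and Mrps23 with 45.2. Mrps25 with 3.45, Mrps14 with 5.09 and Mrps30 with 5.62 were lowest. Opposite-strand genes overlap 63.4% of the exonic bases of Mrps34, 69.8% of those of Mrps25 and 36% of those of Mrpl19. Reads of such pairs cannot be told apart without a stated strand setting. Between the highest and the lowest protein-coding member the range was 50.4-fold. Neighbours in this order overlapped: over the 64 libraries Mrpl42 ranged from 70.2 to 121 and Mrpl12 from 61.6 to 91.8 CPM per kilobase. Within a group the coefficient of variation of a member had a median of 7.97%, from 5.06% to 17.2% among protein-coding members, the last being that of Mrps18c.

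**Figure D1:**
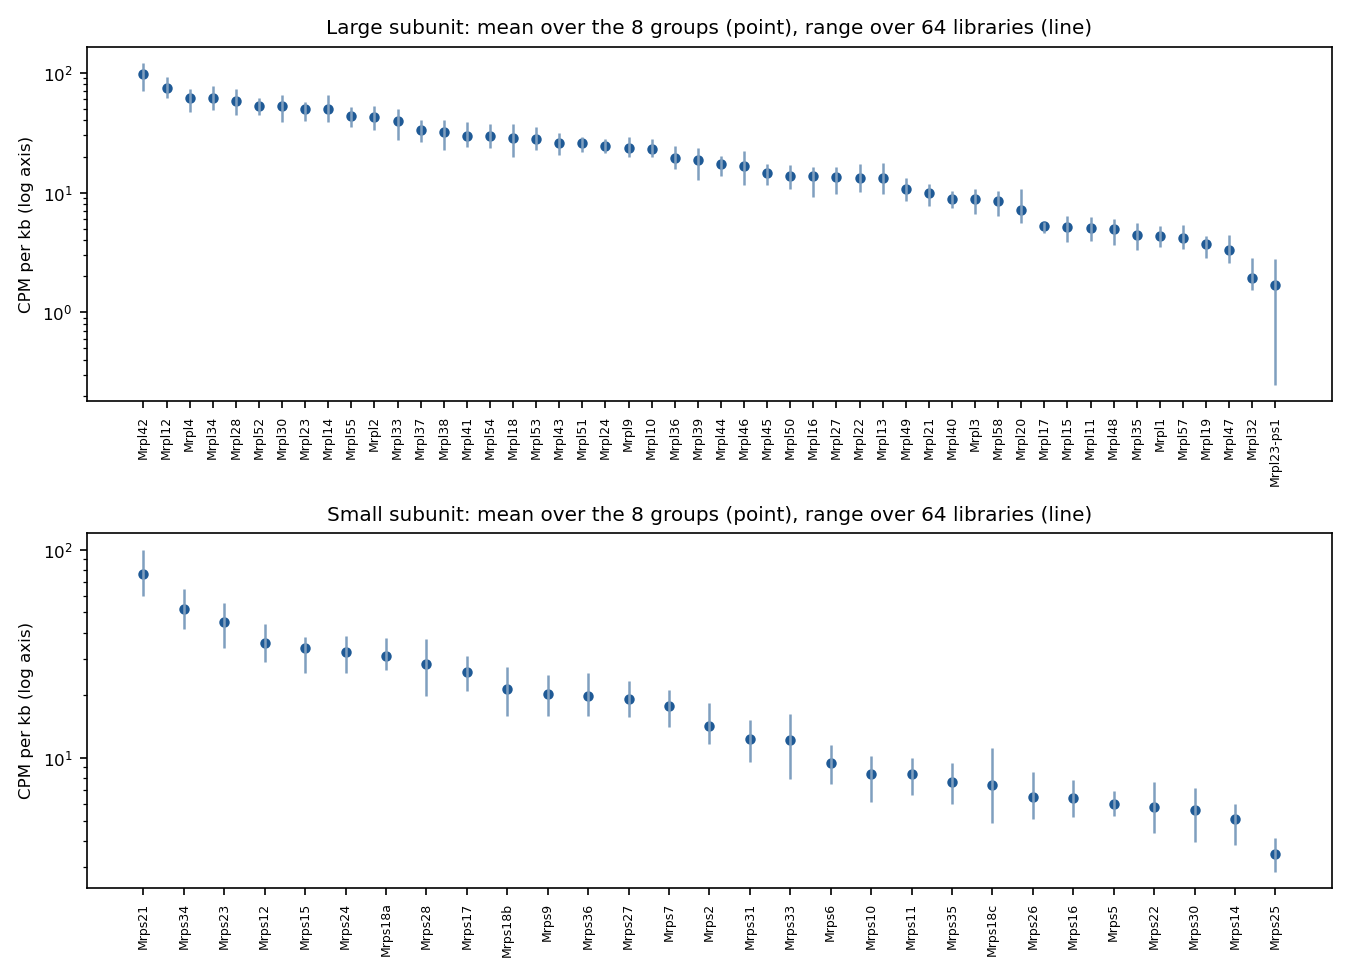
Level of each member in CPM per kilobase of the principal transcript on a log axis, large subunit above and small subunit below. Points are means over the 8 groups and lines span the 64 libraries, with Mrpl42 and Mrps21 leading their subunits at 98.1 and 76.5.

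The first question is how the transgene relates to these transcripts, asked within each of the 4 combinations of sex and training, which share no library. In sedentary males, 40 of 79 members were lower and 0 higher in TG than in nTG hearts at an edgeR adjusted p under 0.05, against 11.2% of all genes lower, 9.39% higher and 20.6% in either direction. The lower members were 27 of 50 in the large and 13 of 29 in the small subunit, and 74 of the 79 had a difference below 0. The median log2 difference was -0.18 in the large and -0.15 in the small subunit, against -0.01 over all genes. The median difference of all members was -10.5%. Summed over the large subunit, the 7 nTG males ranged from 1449 to 1635 CPM with a median of 1607, and the 9 TG males from 1278 to 1500 with a median of 1400. Summed over the small subunit, nTG males ranged from 674 to 767 CPM with a median of 751 and TG males from 619 to 708 with a median of 676. TG hearts were lower on both sums, with an overlap of the ranges. Without sedentary nTG male 6 the count of lower members was 25.

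In trained males, 30 of 79 members were lower and 0 higher in TG hearts, against 8.31% of all genes lower and 5.65% higher. They were 17 large-subunit and 13 small-subunit members, with medians of -0.13 and -0.15. The summed large subunit ranged from 1572 to 1677 CPM in the 8 nTG and from 1241 to 1542 in the 8 TG males, and the summed small subunit from 748 to 794 and from 600 to 733. Neither pair of ranges overlapped. Without trained TG male 4, which held the lowest value of each sum, 18 members were lower.

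In sedentary females, 3 members were lower and 1 higher, against 2.78% and 1.58% of all genes (4.37% in either direction), a share near the background. DESeq2 called 7 members, limma voom 10 and a fit of these groups alone 2. At an unadjusted p under 0.05 there were 21 members, against 16.4% of all genes. By the edgeR adjusted p, the lower ones were Mrpl18, Mrpl34 and Mrps21, and the higher one was Mrpl36. The median log2 difference was -0.07 in the large and -0.05 in the small subunit, and 63 of 79 members were below 0. The summed large subunit ranged from 1340 to 1653 CPM in the 8 nTG females, the widest range of any nTG group, and from 1327 to 1443 in the 8 TG females. The count moved with single mice: it was 2 without nTG female 7, 7 without nTG female 5 or TG female 1, 8 without TG female 7, 9 without nTG female 1 and 11 without nTG female 4. The call of Mrpl34 was lost without nTG female 7 (edgeR adjusted p = 0.064) and in a fit of only those groups (adjusted p = 0.11).

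In trained females, 23 members were lower and 0 higher, 14 in the large and 9 in the small subunit, against 9.43% of all genes lower, 5.37% higher and 14.8% in either direction. Limma voom called 35 members. Ranges did not overlap for 5 members (Mrpl4, Mrpl10, Mrpl18, Mrps21 and Mrps27), against 2.57% of all genes. The medians were -0.12 and -0.13. The summed large subunit ranged from 1484 to 1628 CPM in the 10 nTG and from 1356 to 1514 in the 6 TG females. Only TG female 1, at 1514, lay within the nTG range, and the count was 13 without TG female 3 and 14 without TG female 4.

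**Figure D2:**
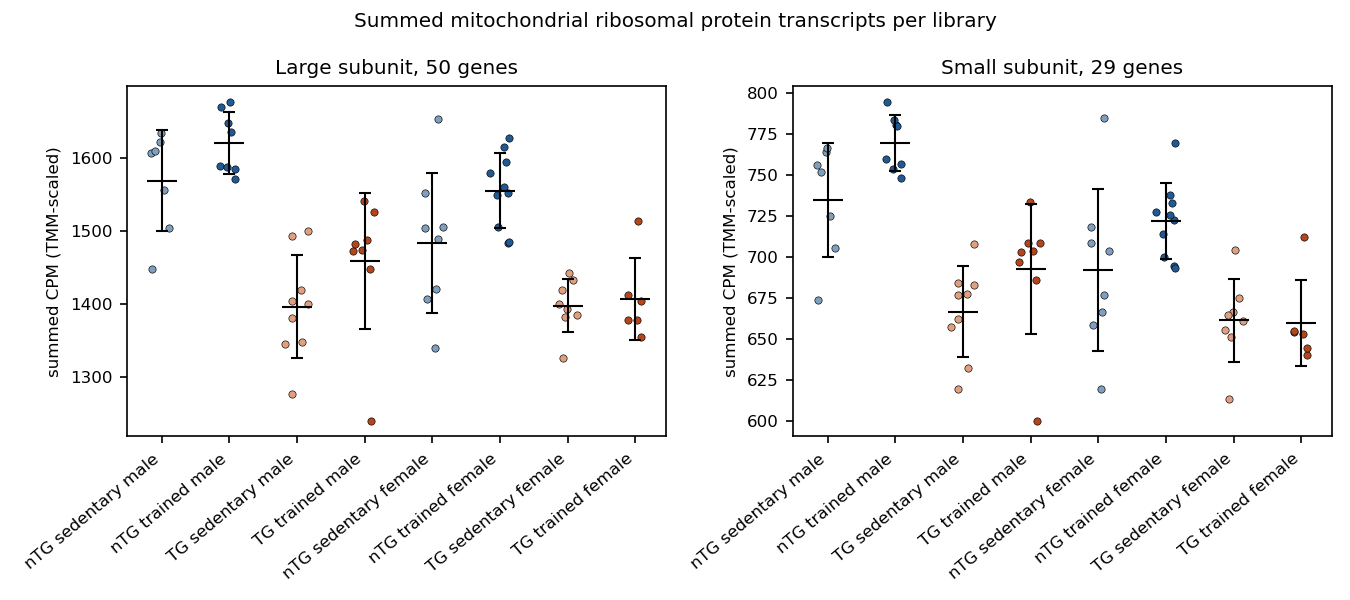
Summed CPM of the 50 large-subunit genes (left) and the 29 small-subunit genes (right) in each of the 64 libraries, by group, on axes that do not start at 0. Bars give the mean and SD; trained nTG and trained TG males do not overlap, and trained TG male 4 is the lowest point in both panels.

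Across the 4 comparisons the members leaned the same way. Of the 79, 54 (68.4%) had a lower mean in TG hearts in all 4, against 22.5% of all genes, and only Mrpl36 was higher in all 4. By subunit, 35 of 50 large and 19 of 29 small members were lower in all 4. In the mean of the 4 differences, 60 members were lower and 1 was higher, against 20.5% and 18.5% of all genes (39% in either direction), and 64 had an unadjusted p under 0.05, against 46.7%. Mrpl18 and Mrps21 passed the test in all 4 comparisons, and 9 members passed in 3, namely Mrpl4, Mrpl14, Mrpl28, Mrpl37, Mrpl42, Mrpl46, Mrpl58, Mrps9 and Mrps27. A further 23 members passed in none. Of all 16913 genes, 389 passed in all 4, a share near that of the members, 665 in 3 and 11495 in none.

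**Figure D3:**
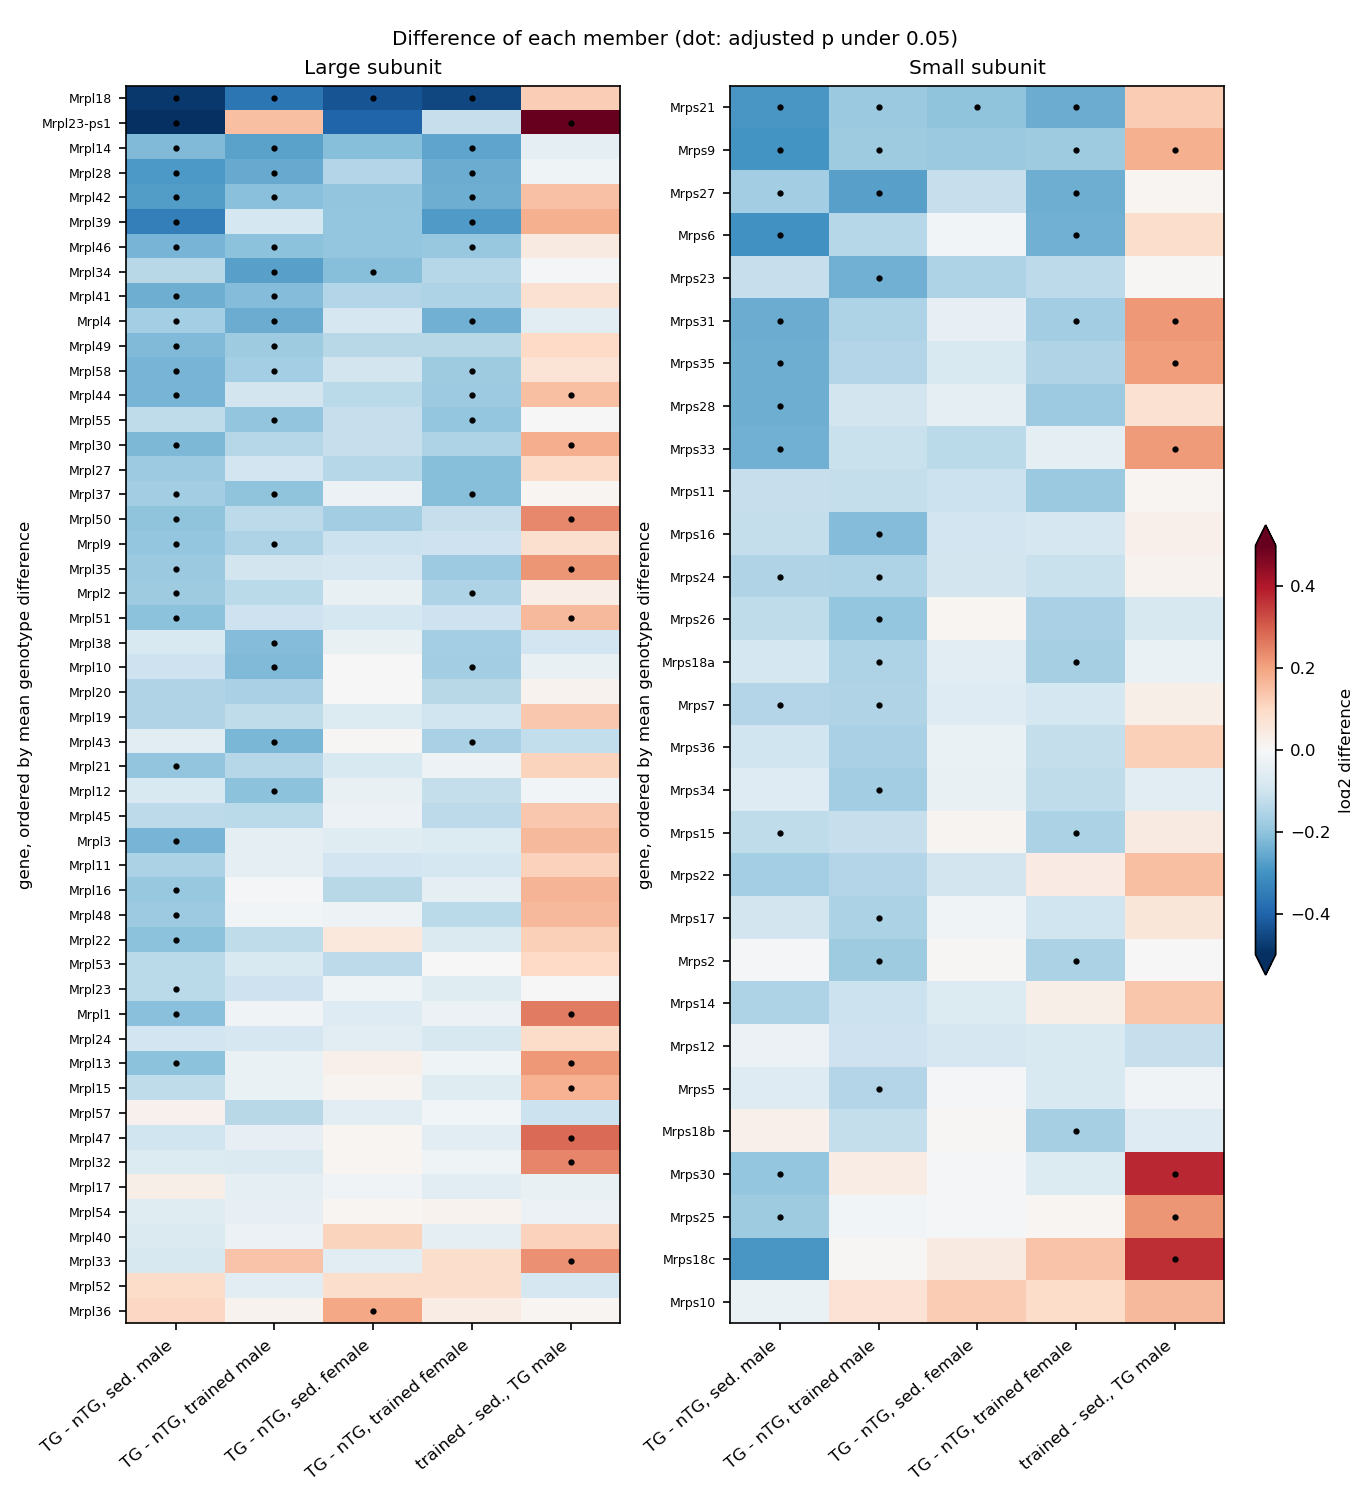
Log2 difference of each member (color scale, blue lower and red higher) in the 4 comparisons of TG with nTG and in the training comparison of TG males, ordered by the mean of the 4 genotype differences. Dots mark edgeR adjusted p under 0.05, Mrpl23-ps1 exceeds the color scale, and Mrpl18 and Mrps21 carry a dot in all 4 genotype columns.

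Mrpl18 had the largest fall of any protein-coding member in each comparison. It encodes a protein of the central protuberance of the large subunit (chr17:12911349-12916345, minus strand, GRCm38). In sedentary males it ranged from 36.9 to 45.4 CPM with a median of 41.2 in nTG and from 26.5 to 33.8 with a median of 28.0 in TG hearts. In trained males the ranges were 38.4 to 43.9 and 28.0 to 34.9 CPM. In females they were 34.2 to 44.5 against 24.2 to 32.3 CPM when sedentary and 36.4 to 43.4 against 26.5 to 31.5 when trained. No TG library reached the lowest nTG library of its stratum.

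The log2 differences of Mrpl18 were -0.48 ± 0.05 (SE) and -0.36 ± 0.05 for sedentary and trained males, and -0.43 ± 0.05 and -0.45 ± 0.05 for sedentary and trained females. The edgeR adjusted p-values were 3.6e-10, 9.1e-07, 1.8e-08 and 9.9e-09. Of its exonic bases, 141 overlap Tcp1, a chaperonin gene on the opposite strand, and the strand setting of the authors' counting is not given in the sources used here. Tcp1 itself differed by -0.15 in sedentary males (edgeR adjusted p = 0.0087) and by 0.01, -0.06 and -0.12 in the other three strata, where it did not pass.

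Mrps21 (chr3:95862634-95871519, minus strand), the highest small-subunit member per kilobase, fell in all 4 comparisons by less. In sedentary males it ranged from 31.3 to 43.9 CPM with a median of 39.2 in nTG and from 27.4 to 32.8 with a median of 30.5 in TG hearts. In trained females the ranges were 33.7 to 38.7 and 27.7 to 33.2 CPM and did not overlap. Its log2 differences were -0.29 ± 0.06, -0.18 ± 0.06, -0.20 ± 0.06 and -0.25 ± 0.06 in the order used for Mrpl18. In sedentary females the call (edgeR adjusted p = 0.035) was lost in a fit of only those groups (adjusted p = 0.15) and without any 1 of 7 single libraries, nTG females 3 and 7 and TG females 2, 3, 4, 5 and 8, with an adjusted p of at most 0.15.

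Several further large-subunit members had ranges that came apart. Mrpl4, a protein of the exit tunnel, ranged from 79.0 to 94.7 CPM in trained nTG and from 60.5 to 78.3 in trained TG males, a log2 difference of -0.25 ± 0.05. In trained females it ranged from 82.3 to 91.5 and from 64.8 to 77.5 CPM, a difference of -0.24 ± 0.05. Mrpl10, the protein that anchors the stalk, fell by 0.22 ± 0.04 log2 units in trained males and by 0.17 ± 0.04 in trained females, with no overlap in either. In sedentary females its difference was 0.00 ± 0.04.

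Mrpl58, a peptidyl-tRNA hydrolase that frees stalled ribosomes, was one of the 2 members whose ranges did not overlap in sedentary males, the other being Mrpl18, where 2.1% of all genes had this property. It ranged from 22.8 to 26.7 CPM in nTG and from 18.2 to 22.4 in TG hearts, a log2 difference of -0.23 ± 0.06 (edgeR adjusted p = 0.0030). Mrpl28 fell by 0.29 ± 0.05, 0.25 ± 0.05 and 0.25 ± 0.06 log2 units in sedentary males, trained males and trained females, and differed by -0.15 ± 0.05 in sedentary females (adjusted p = 0.11). Mrpl39, which resembles a threonyl-tRNA synthetase, differed by -0.34 ± 0.07 in sedentary males and -0.28 ± 0.07 in trained females, where it passed, and by -0.09 ± 0.07 and -0.19 ± 0.07 in the other strata.

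In the small subunit, Mrps27 ranged from 36.9 to 43.3 CPM in trained nTG and from 29.01 to 36.3 in trained TG males, a log2 difference of -0.27 ± 0.05. Mrps23 ranged from 67.6 to 74.0 and from 55.7 to 66.0 CPM in the same groups, a difference of -0.24 ± 0.05. Both sets of ranges were apart, as were those of Mrps5 with -0.15 ± 0.04; 6 of 79 members had this property there, against 1.82% of all genes. Mrps9 fell by 0.30 ± 0.06 in sedentary males, 0.18 ± 0.06 in trained males and 0.18 ± 0.06 in trained females. Mrps6 fell by 0.30 ± 0.07 log2 units among sedentary males, fell by 0.24 ± 0.07 in trained females and differed by -0.01 ± 0.07 in sedentary females.

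Of 22 members with a known role or link to human disease, 9 were lower in sedentary males, 10 in trained males, 7 in trained females and 0 in sedentary females, and 0 were higher. Over all 79 members the lower counts were 40, 30, 23 and 3 in that order, and over all genes the lower shares were 11.2%, 8.31%, 9.43% and 2.78%. Mrpl3 and Mrpl44, whose human counterparts are mutated in mitochondrial cardiomyopathy, differed by -0.23 ± 0.07 and -0.23 ± 0.05 in sedentary males. Mrpl44 also fell by 0.18 ± 0.05 in trained females, whereas Mrpl3 was between -0.05 and -0.07 in the other strata and did not pass. Mrps22 and Mrps14, which have also been linked to cardiomyopathy, passed in none of the 4, with sedentary male differences of -0.17 ± 0.09 and -0.15 ± 0.07. Mrpl12 passed in trained males alone, with -0.21 ± 0.05, and was between -0.12 and -0.04 elsewhere, which is not a test of the difference between strata. The paralogs Mrps18a, Mrps18b and Mrps18c differed by -0.17 ± 0.05, -0.17 ± 0.06 and 0.14 ± 0.12 in trained females, and the last did not pass. Mrps18c differed by -0.29 ± 0.12 in sedentary males (edgeR adjusted p = 0.071) and by 0.00 and 0.05 in trained males and sedentary females. Mrps18b differed by 0.03 and 0.01 in sedentary males and females and by -0.12 in trained males, without passing. The order of these point estimates changed between strata, and the paralogs were not tested against each other.

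Mrpl36 was the only member that passed as higher in TG hearts. Mrps10, Mrpl52 and Mrpl33 also had mean differences above 0 (0.06, 0.05 and 0.02) and did not pass. Mrpl36 encodes a short protein at the core of the large subunit and lies at chr13:73328513-73332178 on the plus strand. Its ranges and those of Mrpl18 were the only ones of members that did not overlap in sedentary females, a property of 0.52% of all genes. In that stratum it ranged from 12.3 to 13.4 CPM in nTG and from 14.2 to 16.1 in TG hearts, without overlap, a log2 difference of 0.19 ± 0.05 (edgeR adjusted p = 0.018). In the other strata it differed by 0.10 ± 0.05, 0.02 ± 0.05 and 0.04 ± 0.06 and did not pass, and its mean difference was 0.09 ± 0.03 (adjusted p = 0.0052). Its start lies 29 bases from that of Ndufs6, a complex I gene on the opposite strand, with 30 shared exonic bases. Ndufs6 fell in all 4 strata, by 0.30 ± 0.06, 0.23 ± 0.06, 0.22 ± 0.06 and 0.22 ± 0.06 log2 units.

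**Figure D4:**
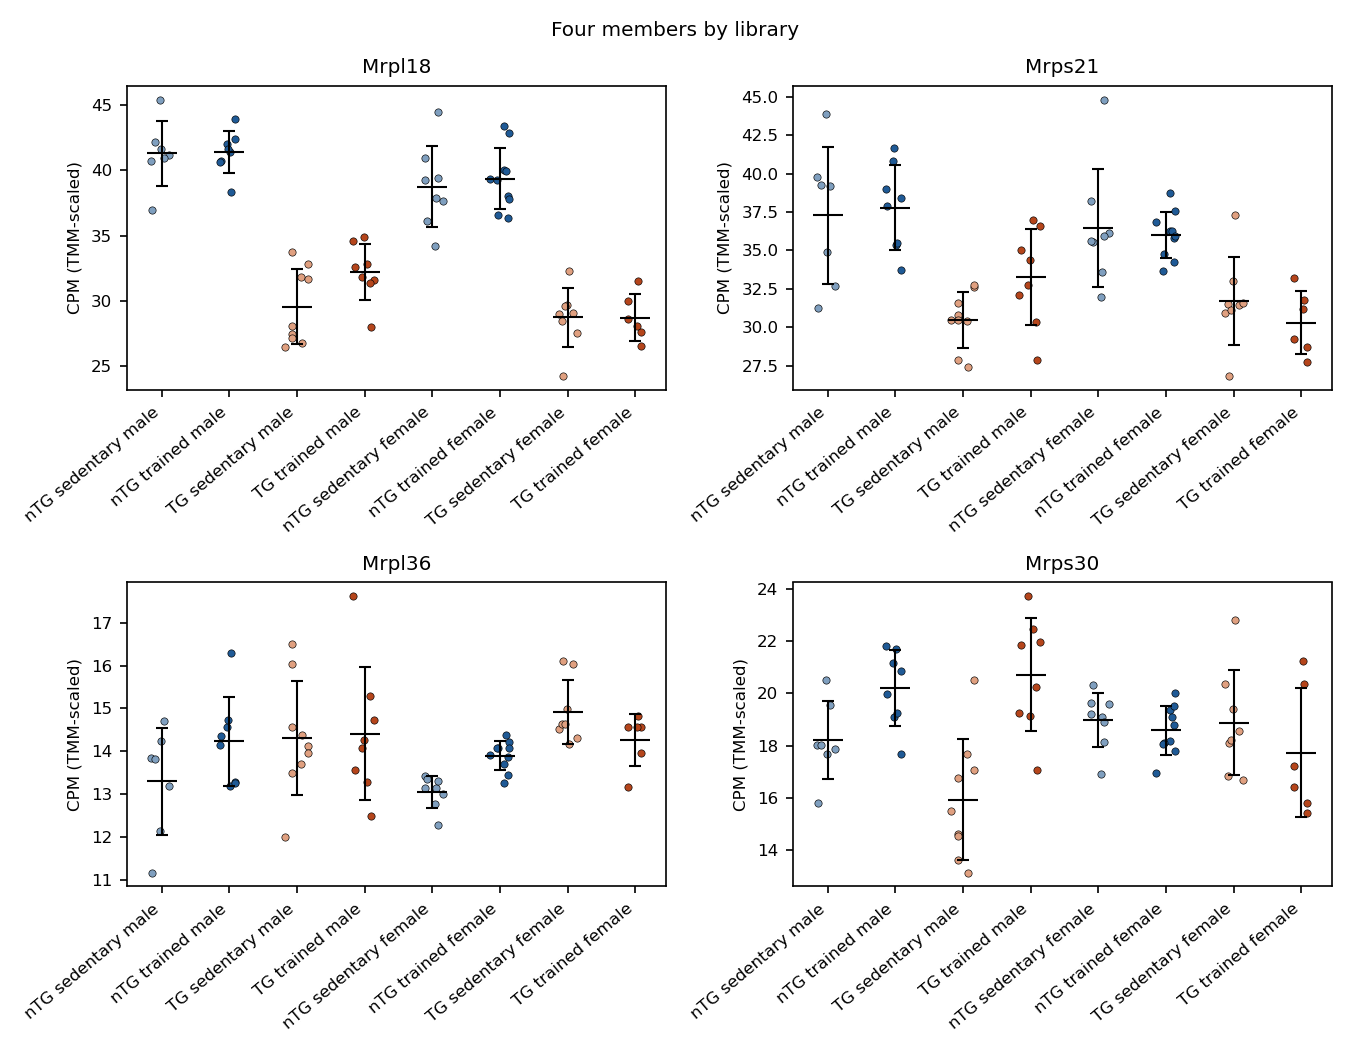
CPM of Mrpl18, Mrps21, Mrpl36 and Mrps30 in each library by group, with mean and SD, on axes that do not start at 0. Mrpl18 is lower in TG hearts without overlap in all 4 strata, Mrpl36 is higher in sedentary TG females, and Mrps30 is lowest in sedentary TG males at 13.1 to 20.5.

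Start sites shared with another gene were common among the members. Of the 78 protein-coding members, 33 (42.3%) had a protein-coding start on the opposite strand within 1000 bases, against 15.1% of the 13959 protein-coding genes of the table. Among 28 such neighbours that were tested and are no members themselves, 11 were lower and 2 higher in the mean over strata, against 20.5% and 18.5% of all genes, with a median log2 difference of -0.06. The members of these pairs had a median of -0.11. Exonic overlap with a gene on the opposite strand was annotated for 28 members, with 11 members sharing over 20% of their exonic bases on either strand, and without a stated strand setting the reads of such pairs cannot be told apart.

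The second question is what interval training did within each genotype and sex. In TG males, 19 of 79 members were higher after training and 0 lower, against 10.3% of all genes higher and 7.6% lower. Of these 19, 12 were large-subunit and 7 small-subunit members. Limma voom called 33 members. By edgeR, 34 members had an unadjusted p under 0.05, against 31.9% of all genes. The median log2 difference was 0.10 in the large and 0.06 in the small subunit, against 0.00 over all genes. The summed large subunit ranged from 1278 to 1500 CPM in sedentary and from 1241 to 1542 in trained TG males, with medians of 1400 and 1479. The number of higher members was 12 without sedentary TG male 5, 11 without sedentary TG male 6 or trained TG male 7, 12 without trained TG male 2 or 3, and 28 without trained TG male 4. This comparison shares the 9 sedentary TG males with the genotype comparison of sedentary males, so the values of one are not independent of the other.

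Mrps30 (chr13:118378381-118387252, minus strand) rose most among protein-coding members. It ranged from 13.1 to 20.5 CPM with a median of 15.5 in sedentary and from 17.1 to 23.7 with a median of 21.0 in trained TG males, with overlapping ranges. Its log2 difference was 0.38 ± 0.07 (edgeR adjusted p = 0.00088). In nTG males, at 15.8 to 20.5 CPM when sedentary and 17.7 to 21.8 when trained, the difference was 0.15 ± 0.07 (adjusted p = 0.83). In sedentary males the genotype difference was -0.19 ± 0.07 (adjusted p = 0.040).

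Mrpl47, a protein beside the tunnel exit, was the only member whose ranges did not overlap in this comparison, a property of 1.09% of all genes. It ranged from 8.78 to 10.7 CPM in sedentary and from 10.9 to 13.0 in trained TG males, a log2 difference of 0.28 ± 0.06 (edgeR adjusted p = 0.0026). Mrpl1 rose by 0.26 ± 0.06 and Mrpl50 by 0.24 ± 0.06. Mrpl32, the lowest protein-coding member of its subunit per kilobase, rose by 0.24 ± 0.08, and Mrpl51 by 0.16 ± 0.04.

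Among the small-subunit members, Mrps25 rose by 0.22 ± 0.06, Mrps31 by 0.22 ± 0.06 and Mrps35 by 0.21 ± 0.06. Mrps18c rose by 0.37 ± 0.11 (edgeR adjusted p = 0.019), a call lost without sedentary TG male 6 (0.052) or trained TG male 7 (0.061). The pseudogene Mrpl23-ps1, at 0.14 to 0.88 CPM in sedentary and 0.75 to 1.42 in trained TG males, had the largest fitted difference, 0.81 ± 0.20. Mrpl18 and Mrps21, which passed in all 4 genotype comparisons, differed here by 0.12 ± 0.05 and 0.13 ± 0.06 and did not pass (edgeR adjusted p = 0.071 and 0.12).

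In the other 3 training comparisons 0 members passed with edgeR, against 0 genes of all in nTG males and in TG females and 0.124% higher and 0.0237% lower in nTG females. At an unadjusted p under 0.05 the counts of members were 14 in nTG males, 18 in nTG females and 1 in TG females, against 5.91%, 14.2% and 3.58% of all genes. In TG females no member had ranges that did not overlap, against 0.0473% of all genes. DESeq2 called 0 members in each, and limma voom 0, 1 and 0. The median log2 difference was 0.05 in nTG males, 0.05 in nTG females and 0.00 in TG females. Mrpl47 (0.23 ± 0.07) and Mrps2 (0.17 ± 0.06) had the smallest p in nTG males, Mrpl43 (0.18 ± 0.05) and Mrpl4 (0.14 ± 0.04) in nTG females, and Mrpl34 (0.15 ± 0.06) and Mrps23 (0.10 ± 0.05) in TG females.

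Whether these effects differ between groups was tested by interaction terms, and edgeR called 0 members and 0 genes in each of 5. For the genotype difference in trained against sedentary males, 7 members had an unadjusted p under 0.05 (14.8% of all genes), DESeq2 called 0 and limma voom 1. For the same in females the numbers were 10 (6.46% of all genes), 0 and 0, and for the genotype difference in sedentary females against males 11 (8.7% of all genes), 0 and 0. For training in TG females against TG males they were 19 (18.1% of all genes), 1 and 7, and in nTG females against nTG males 3 (6.37% of all genes), 0 and 0. The smallest p was that of Mrps30, whose training difference in TG females minus that in TG males was -0.47 ± 0.10 on the log2 scale (edgeR adjusted p = 0.062). The number of members passing this term was 3 without trained TG female 6 or sedentary TG female 4, 2 without trained TG male 4 and 1 without sedentary TG male 7. By the main test, the genotype difference in sedentary females is thus not shown to differ from that in trained females or in sedentary males for any member, and it was not tested against that in trained males. Between sedentary nTG females and males, Mrpl28 alone passed, with a log2 difference of -0.25 ± 0.05 (edgeR adjusted p = 0.0054), against 1.37% of all genes lower and 0.846% higher. The count was 8 without nTG female 7 and 2 without nTG female 8.

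Genes that work with the mitochondrial ribosome were compared as lists. In sedentary males, 12 of 27 assembly factors, 9 of 18 mitochondrial translation factors and 6 of 20 mitochondrial aminoacyl-tRNA synthetases were lower in TG hearts, with medians of -0.14, -0.17 and -0.10, against 11.2% of all genes lower and a median of -0.01. Of 5 ribosomal proteins whose symbols fall outside the rule, 3 were lower, led by Dap3 with -0.25 ± 0.05, and 1 synthetase, Aars2, was higher with 0.36 ± 0.06. Mtif2, the initiation factor, fell by 0.35 ± 0.06 and Tufm, the elongation factor, by 0.22 ± 0.05. Of 80 nuclear genes of the respiratory chain and ATP synthase, 72 were lower and 1 higher, with a median of -0.27. Of 81 cytosolic ribosomal protein genes, 3 were lower and 1 higher, with a median of -0.03. Of the 13 mitochondrially encoded messenger RNAs, the templates of these ribosomes, 1 was lower, mt-Co1 with -0.24 ± 0.06.

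In trained males the median was -0.15 for the respiratory chain, -0.13 for all members and 0.03 for cytosolic ribosomal proteins, and in trained females -0.17, -0.12 and -0.03. In sedentary females it was -0.13, -0.06 and -0.02. In the training comparison of TG males, 36 of 80 respiratory chain genes and 24 of 81 cytosolic ribosomal protein genes were higher, with medians of 0.15 and 0.10, and 7 of 18 translation factors and 5 of 27 assembly factors were higher, against 10.3% of all genes. Mtif2 rose by 0.32 ± 0.06 there and Gtpbp10, an assembly factor, by 0.35 ± 0.09. The lists were not tested against each other.

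**Figure D5:**
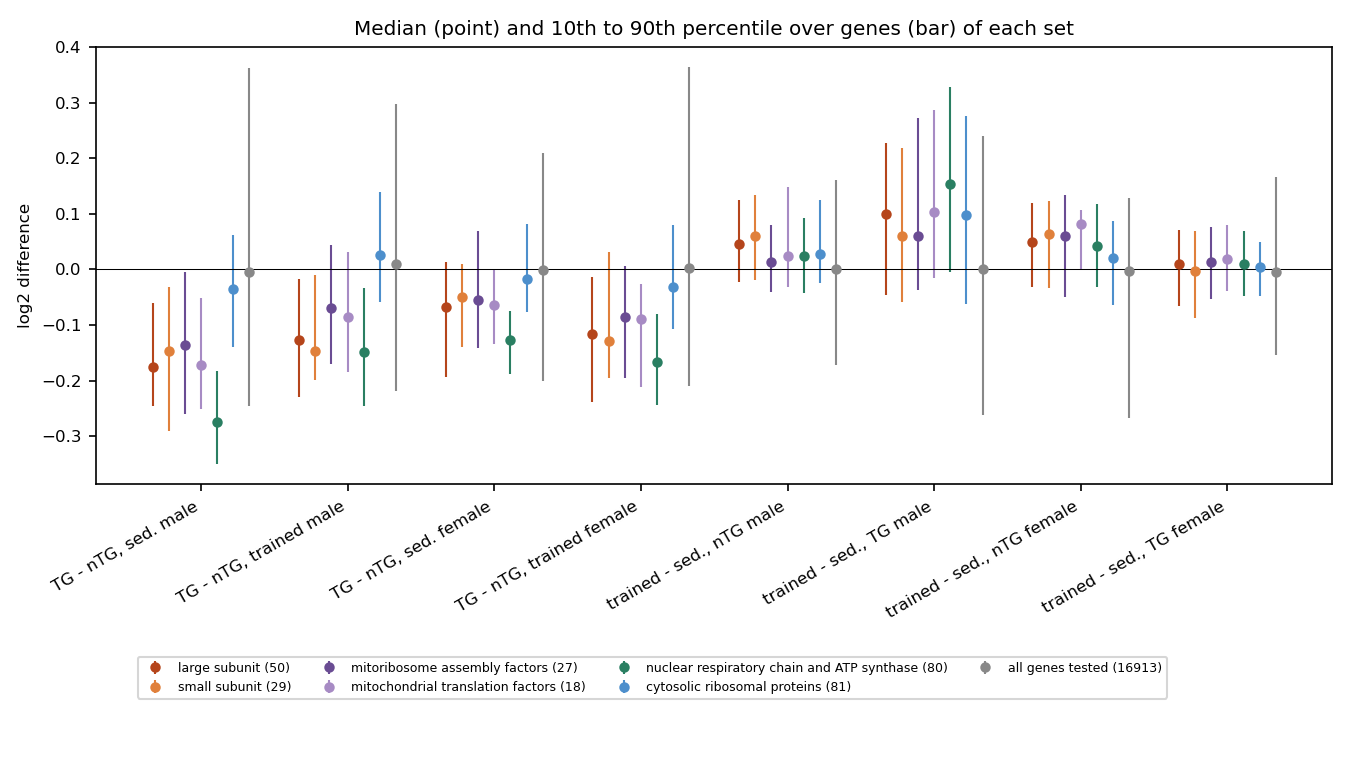
Median log2 difference (point) and 10th to 90th percentile over genes (bar) of both subunits, 4 related lists and all 16913 genes in the 4 genotype and 4 training comparisons. Respiratory chain medians run from -0.27 to -0.13 in the 4 genotype comparisons and lie close to that of the small subunit in trained males. Cytosolic ribosomal proteins lie between -0.03 and 0.03 there.

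Markers of other cell types moved with some of these comparisons. Over all genes, the lower and higher shares were 11.2% and 9.39% in sedentary males and 8.31% and 5.65% in trained males. They were 2.78% and 1.58% in sedentary females, and 9.43% and 5.37% in trained females. For training in TG males they were 7.6% and 10.3%. In sedentary males, all 5 fibroblast and all 5 macrophage and leukocyte markers were higher and 3 of 5 cardiomyocyte markers lower in TG hearts. Summed fibroblast markers ranged from 717 to 959 CPM in nTG and from 797 to 1387 in TG hearts, and macrophage and leukocyte markers from 109 to 152 and from 138 to 246. In trained males 3 fibroblast and 4 macrophage markers were higher, in trained females 2 and 3, and in sedentary females 0 and 0. Summed fibroblast markers were 687 to 938 CPM in trained nTG and 952 to 1219 in trained TG females, without overlap. In trained males they were 612 to 845 CPM in nTG and 761 to 1713 in TG hearts. In sedentary females they were 823.5 to 1418 and 962 to 1276 CPM. Macrophage and leukocyte sums were 110 to 143 CPM in trained nTG and 146 to 251.5 in trained TG males, without overlap. In trained females they were 118 to 156 and 145 to 209 CPM. Of 6 erythroid markers, 5 were lower in trained TG than in trained nTG males, with sums of 260 to 555 and 573 to 1114 CPM. In trained females 0 of the 6 passed, with a median log2 difference of -0.65 and sums of 344 to 611 CPM in TG and 577 to 801 in nTG hearts. Among cardiomyocyte markers, 1 of 5 was lower in trained males, 3 in trained females and 0 in sedentary females. In TG males, all 6 erythroid markers were lower after training, with sums of 291 to 4626 CPM in sedentary and 260 to 555 in trained hearts, the highest being sedentary TG male 5, and 3 of 5 endothelial markers were lower. In the same comparison 1 of 5 fibroblast and 2 of 5 macrophage and leukocyte markers were lower and 1 of 5 cardiomyocyte markers was higher. Their summed medians in sedentary and trained TG males were 1220 and 888 CPM for fibroblast, 204 and 166 CPM for macrophage and leukocyte, and 50710 and 56380 CPM for cardiomyocyte markers, with overlapping ranges in each. Of 5 endothelial markers, 1 was also lower in trained TG than in trained nTG males, with sums of 877 to 1041 and 957 to 1108 CPM. The 3 skeletal muscle markers in the table were Acta1, Ckm and Tnni2, of which Acta1 and Ckm are also expressed in heart muscle. Their sums were 1705 to 1911 CPM in trained TG males, 1811 to 2575 in trained nTG males and 1662 to 2574 in sedentary TG males. Ckm was lower in trained TG than in trained nTG males (-0.28 ± 0.06), and 0 of the 3 passed in the training comparison. The part of these shifts in the differences of the members was not tested.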

How the data were processed

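Total RNA of 64 mouse hearts was sequenced after depletion of ribosomal RNA. The authors deposited gene counts and, for long noncoding RNAs, expected counts; per the submitters' processing notes cutadapt 2.3, FastQC 0.11.8, MultiQC 1.7, STAR 2.7.8a and RSEM 1.3.3 were used with GRCm38/mm10. The roles and order of these tools and the strand setting are not given in the sources used here. The expected counts served only to assign the gene columns, by correlation of centred log2 CPM with a pseudocount of 0.5 over transcripts with a mean of at least 20 counts. Gene counts were tested with edgeR 4.0.16 (R 4.3.3; TMM, filterByExpr, 8 group means, quasi-likelihood F test), with Benjamini-Hochberg adjustment over all 16913 genes and a threshold of 0.05. DESeq2 1.42.0, limma 3.58.1 voom, other normalizations and filters, and leaving out each library were alternatives. All tests are two-sided. Both steps were tested on simulated data. Symbols and coordinates came from GENCODE M21 and promoters from RefSeq. Named members are up to 5 per subunit and direction with the smallest p past the threshold in each comparison of groups (the 2 with the smallest p where fewer than 3 passed), the 3 highest and 3 lowest per length in each subunit, and 22 with a known role. Members outside this rule, among them Mrpl9 and Mrpl52, were chosen after their values were seen. Members and lists were chosen with earlier results of these data known.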

Additional observations from a re-analysis of the deposited data

Results flagged for a closer look

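Values that stood far from the rest of their group were looked for in 216 sets of values, of which chance alone would flag about 1 in 20, and 20 were found. Trained TG male 4 gave 5 of them: a summed large subunit of 1241 CPM where the others were 1448 to 1542, a summed small subunit of 600 CPM (others 686 to 733), Mrpl45 at 27.9 CPM (34.9 to 40.2), Mrps15 at 24.0 CPM (29.2 to 33.1) and Mrps35 at 24.9 CPM (30.8 to 35.5). Trained TG female 1 was high on both sums, with 1514 CPM for the large subunit (others 1356 to 1413) and 712 CPM for the small subunit (640 to 655).

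Some libraries were high for Mrps36 or Mrps22. Mrps36 was 15.9 CPM in sedentary TG male 7 (others 11.7 to 13.4) and 17.9 CPM in sedentary TG female 7 (11.8 to 14.3). Mrps22 was 9.14 CPM in that same female (5.34 to 7.09) and 8.44 CPM in trained nTG female 3 (6.06 to 7.24).

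In the large subunit, Mrpl12 was 83.0 CPM in sedentary TG male 5 (others 94.7 to 102), Mrpl3 was 27.7 CPM in sedentary nTG female 4 (34.6 to 38.5), Mrpl44 was 25.8 CPM in trained TG female 6 (22.0 to 22.5) and Mrpl10 was 47.5 CPM in sedentary nTG male 7 (38.9 to 42.3). In the small subunit, Mrps5 was 24.2 CPM in trained nTG female 7 (26.4 to 28.2) and Mrps18a was 30.4 CPM in sedentary nTG female 7 (26.1 to 27.7). Mrps18b was 29.4 CPM in trained nTG male 1 (23.3 to 25.9) and 17.2 CPM in sedentary TG female 4 (21.6 to 23.8). Mrps18c was 6.28 CPM in trained nTG male 2 (4.87 to 5.50).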

How the results depend on the processing

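With gene columns taken by name, 0 members passed in the sedentary male, trained male, sedentary female and trained female genotype comparisons, their mean, the training comparison of TG males and the sex comparison. That setting also turned the median to -0.073 for training in TG males and 0.0174 for sex. It turned Mrpl28 to 0.0188 in sedentary males; in trained males Mrpl18 to 0.0469, Mrpl28 to 0.0881, Mrpl34 to 0.0073, Mrpl4 to 0.012, Mrps16 to 0.0235 and Mrps18a to 0.0106; in trained females Mrpl18 to 0.0098, Mrpl28 to 0.0249 and Mrps15 to 0.0097. For training in TG males it turned Mrpl1 to -0.073, Mrpl23-ps1 to -0.0197, Mrpl47 to -0.0976, Mrpl50 to -0.0389, Mrpl51 to -0.0957, Mrps18c to -0.0009, Mrps25 to -0.15, Mrps30 to -0.0305, Mrps31 to -0.026 and Mrps35 to -0.0414.

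The members passing in sedentary females were 7 with DESeq2, 2 in a fit of these groups alone and 10 with voom. Voom gave 35 in trained females, 33 for training in TG males, 1 for training in nTG females, 1 for genotype by training in males, 7 for training by sex in TG mice (DESeq2 1) and 2 for sex, where the fit of these groups alone gave 0. The cause was not tested.

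Leaving out 1 library gave 25 to 45 members in sedentary males, 18 to 32 in trained males, 2 to 11 in sedentary females, 13 to 30 in trained females, 11 to 28 for training in TG males, 56 to 63 for the mean, 0 to 3 for training by sex in TG mice and 1 to 8 for sex. The replicate numbers showed no general pairing of the samples (median correlation 0.01 over 205 same-number pairs, from -0.317 to 0.413). A median over all pairs cannot exclude that some of them are paired. With the replicate number as a block the counts were 45, 32, 6, 17, 21 and 63 for the 4 strata, training in TG males and the mean, and 3 for sex. Residual spread limits what the data show of members that did not pass: a member's SE was about 0.06 on the log2 scale, near the smaller differences reported.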
